A study of Mus musculus with 30 samples.

Results

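The genes described here build ribosomes. They encode RNA polymerase I with its factors, the proteins of small nucleolar RNA particles and the factors that assemble the 40S and 60S subunits. Members were chosen by name: symbols of the Nop, Rrp, Utp and Polr1a-to-e series with a number or letter, plus Fbl, Ncl, Npm1, Dkc1, Nhp2, Gar1, Wdr12, Bop1, Pes1, Rrs1, Ubtf and Rrn3. Of 44 symbols that matched, 1 was a pseudogene without fragments and was left out. That left 43 genes of 46078 in the count table. The rule used symbols and no measured value, but it was chosen with earlier results of these data known. All 43 reached 10 CPM (counts per 1000000 fragments of a library) in at least 1 phase, so the filter on low values removed none of them.

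The study measured RNA and chromatin in C2C12 cells, an established mouse myoblast line, through the cell cycle. All cells were in the growing state in medium with 20% serum. A cell sorter split them by phase after 15 minutes in Hoechst, a dye for DNA. The G1, S and G2/M cells share line, medium and stain and carry no other treatment. Each of the 3 fractions has 2 columns of RNA-seq counts, and 24 chromatin samples were not analysed here.

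The columns held 16109055 to 18103769 fragments. Replicate numbers in the titles separate the 2 columns of a phase, without word of separate cultures. Over all genes their differences matched counting noise in G1 and S and exceeded it slightly in G2/M, with chi-square over its degrees of freedom at 1.00, 1.03 and 1.15. Over the members it was 1.07, 1.04 and 1.54. For this reason each pair was added up and stands for 1 library, so no phase difference has a replicate check or a p-value. Statements below that columns of different phases do not overlap describe the counts and are no replicate check either. Intervals below are exact 95% binomial intervals on the split of fragments and cover counting error only. A lot number stands in the titles of the S samples alone, and this lot cannot be told apart from the phase. Both marker lists used to check the sort moved between the fractions: 8 of 8 S-entry genes were lower in G2/M than in G1, by a median of -1.56 (log2), and 8 of 8 mitotic genes were higher, by 2.28. In S against G1, 8 of 8 S-entry genes were lower (median -1.52) and 7 of 8 mitotic genes higher (median 1.18). Of 10 myoblast markers 8 were measured, and the 10 had a summed level between 969 and 1014 CPM. Among them Myf5 was 1.91 times and Six4 2.09 times higher in S than in G1, and Vcam1 was 1.54 times lower. The 2 below the minimum were Myod1, with 213, 218 and 208 fragments in G1, S and G2/M, and Pax7, with 0, 0 and 119. Of 18 markers of other cell types and differentiated muscle 9 had no fragment, Ptprc, Epcam and Adipoq among them, and 4 were measured. Below the minimum, Acta1 had 216, 5 and 336 fragments in G1, S and G2/M, and Cd68 had 169, 47 and 0. Cdh5 had 2, 39 and 0, Pecam1 had 0, 0 and 29, and Ckm had 0, 1 and 0. In the same order of phases, Krt14 had 326, 285 and 233 CPM, Runx2 had 65.1, 103 and 85.7 CPM, Sox9 had 34.2, 39.3 and 41.3 CPM, and Pparg had 43.5, 14.4 and 26.1 CPM. The summed level of the 18 ran from 396 CPM in G2/M over 445 in S to 481 in G1. The part of these markers in the results was not tested.

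Ribosome production starts in the nucleolus, where RNA polymerase I copies the ribosomal DNA into one long precursor. The precursor is modified by small nucleolar ribonucleoproteins (snoRNPs), cut, and packed by assembly factors into a small (40S) and a large (60S) subunit. In cycling cells transcription by RNA polymerase I is shut down at mitosis and resumes in G1, and growing myoblasts need a steady supply of ribosomes. The values here are mRNA levels of the factors, and the rate of ribosomal RNA synthesis was not measured. In bulk RNA, fewer cells of a type and less RNA per cell cannot be told apart, and CPM gives a gene's share of the counted RNA.

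**Figure D1:**
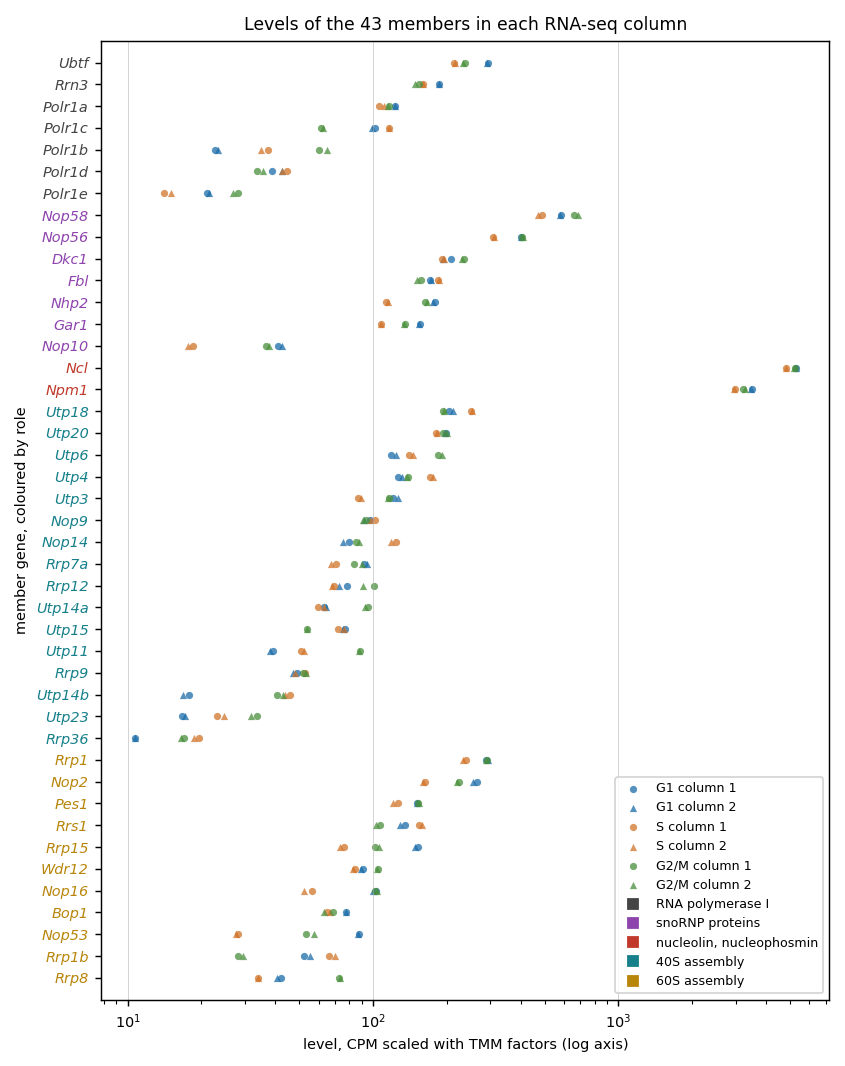
Level of each of the 43 members in every RNA-seq column, in CPM on a log axis. Blue marks are G1, orange S and green G2/M, circles and triangles are the first and second column of a phase, and gene names are coloured by role. The columns of 1 phase lie close together, and the members run from Rrp36, at 10.7 CPM in G1, to Ncl, at 5286 CPM in G1.

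The members differed far more among themselves than between phases. Their mean level over the phases ran from 15.5 to 5096 CPM with a median of 95.4 CPM. The highest level of a member over the phases was 1.07 to 3.12 times its lowest, with a median of 1.40 times over all 43. Over 4239 genes whose mean was 50 CPM or more the median was 1.39 times. That minimum was not put on the members, of which 35 reached it, so the medians are not like for like. Per kilobase of exon, Npm1 was the most abundant member at a mean of 1215 CPM per kb, followed by Ncl at 500.1, Fbl at 147, Rrp1 at 136 and Nhp2 at 133. Utp14b, at 4.52 CPM per kb, and Polr1e, at 5.41 CPM per kb, were the scarcest. In sum the members took 14118 CPM in G1 cells, 12465 in S cells and 13828 in G2/M cells.

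S against G1 asked which members differ once cells have begun to copy their DNA. Members were lower in S more often than higher, 27 against 16, with a median log2 ratio of -0.14 beside -0.01 over all measured genes. At 2-fold or more, Utp14b was higher and Nop53, Nop10 and Rrp15 were lower. Those 4 are 9.30% of the members, against a background of 17.2% of 8773 measured genes (8.59% higher and 8.62% lower). At 1.5-fold or more, 4 members were higher (Utp14b, Rrp36, Polr1b and Nop14) and 6 were lower (Nop53, Nop10, Rrp15, Nop16, Nop2 and Nhp2). Those 10 are 23.3% of the members, and the background was 36.9% (18.5% higher and 18.4% lower). This background holds many scarce genes with larger ratios. Among genes whose mean was 50 CPM or more, 2 of 35 members were 2-fold apart (5.71% against 5.54%), 0 of them higher (3.54% of all) and 2 lower (5.71% against 2.01%). At 1.5-fold it was 6 of 35 (17.1% against 20.9%), 1 of them higher (2.86% against 12.2%) and 5 lower (14.3% against 8.75%). The counting interval excluded equal levels for 39 members, or 90.7%, close to the 88.3% of all measured genes. The same shares were 95.3% against 86.8% in G2/M against S and 86% against 89% in G2/M against G1.

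G2/M against S asked how the members stand after replication. Here the lean was the other way: 29 members were higher in G2/M and 14 lower, with a median log2 ratio of 0.30 beside 0.01 over all measured genes. Rrp8 and Nop10 were higher and Rrp1b lower by 2-fold or more, 6.98% of the members against a background of 13.7% of 8752 genes (7.13% higher and 6.60% lower). Rrp8 and Nop10 lay just past the threshold, at 2.14 and 2.06 times, and Nop53 just short of it, at 1.98 times. From the first column of each phase alone, the log2 ratio of Nop10 was 0.98 and Rrp8 stayed as the 1 member at 2-fold or more. At 1.5-fold or more, 8 were higher (Rrp8, Nop10, Nop53, Nop16, Polr1e, Polr1b, Utp11 and Utp14a) and 2 lower (Rrp1b and Polr1c), against a background of 31.5% (16.1% higher and 15.4% lower). At a mean of 50 CPM or more, 1 of 35 members was 2-fold apart (2.86% against 2.36%), 0 higher (0.873% of all) and 1 lower (2.86% against 1.49%). At 1.5-fold it was 6 of 35 (17.1% against 14.6%), 4 higher (11.4% against 6.98%) and 2 lower (5.71% against 7.64%). This comparison and the one before share the S library.

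G2/M against G1 set the 2 ends of the cycle side by side. The members were close to balance, 19 higher and 24 lower, with a median log2 ratio of -0.02. Polr1b, Utp14b and Utp11 were higher in G2/M by 2-fold or more and none was lower by as much. These 3 are 6.98% of the members, against a background of 19.9% of 8850 genes (10% higher and 9.82% lower). At 1.5-fold or more, 7 were higher (Polr1b, Utp14b, Utp11, Utp23, Rrp8, Rrp36 and Utp6) and 3 lower (Rrp1b, Polr1c and Nop53), against a background of 39.8% (20.2% higher and 19.6% lower). Of the 7 higher ones, 5 are factors of the 40S subunit, which make up 16 of the 43 members. Among these 5, Utp14b, Utp23 and Rrp36 were scarce, with means of 34.7, 24.5 and 15.5 CPM. At a mean of 50 CPM or more, 1 of 35 members was 2-fold apart (2.86% against 6.46%), 1 higher (2.86% against 3.87%) and 0 lower (2.59% of all). At 1.5-fold it was 5 of 35 (14.3% against 23.6%), 2 higher (5.71% against 12.5%) and 3 lower (8.57% against 11.1%).

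Across the 3 phases, 24 of the 43 members had their lowest level in S, 9 in G1 and 10 in G2/M, while of 9071 genes at 10 CPM 30.9% were lowest in S, 36% in G1 and 33.1% in G2/M. Among the members whose mean was 50 CPM or more it was 21 of 35, against 29.6% of 4239 genes. The dip was unevenly spread over the roles: 6 of 7 snoRNP proteins, 8 of 11 60S factors, both Ncl and Npm1 and 3 of 7 RNA polymerase I genes were lowest in S, but 5 of 16 40S factors. Of the 40S factors 8 were lowest in G1. Among 140 other genes of the pathway, 55 were lowest in S.

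**Figure D2:**
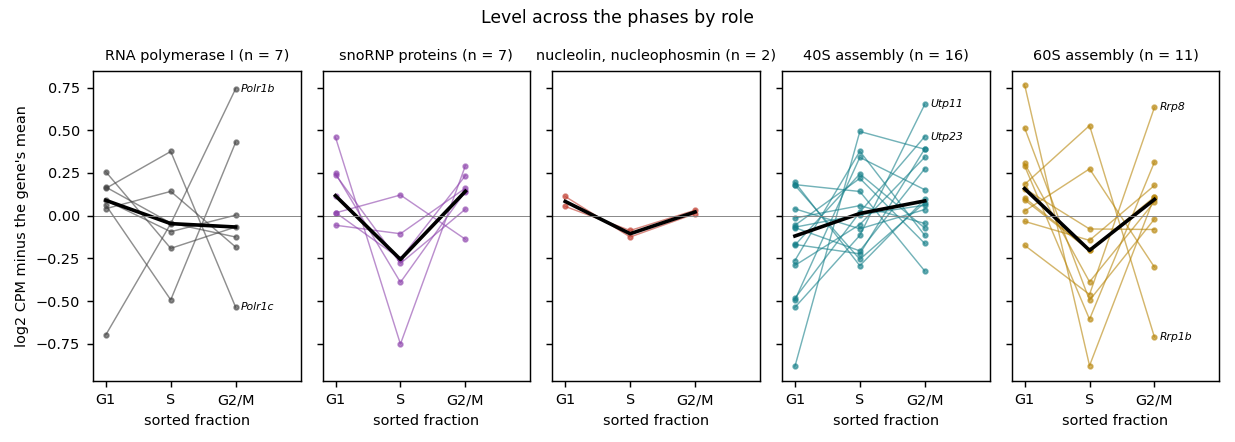
Level of each member in the 3 sorted fractions, as log2 CPM minus the gene's own mean, in 1 panel per role, with a thick black line for the median. The snoRNP and 60S medians dip in S, the 40S median does not, and the RNA polymerase I members part, with Polr1b highest and Polr1c lowest in G2/M.

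RNA polymerase I and its factors had no common course. The 7 members include 5 polymerase subunits, the promoter factor Ubtf and the initiation factor Rrn3. Their summed level was 787 CPM in G1 cells, 694 in S cells and 688 in G2/M cells, and their median log2 ratio was -0.18 for S against G1, 0.10 for G2/M against S and -0.22 for G2/M against G1.

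Polr1b encodes the second-largest subunit, which forms the catalytic centre together with Polr1a. It stood at 22.8 and 23.4 CPM in the G1 columns, 37.5 and 35.0 CPM in S and 60.5 and 64.8 CPM in G2/M. Every G2/M column was above every S column and every S column above every G1 column. The log2 ratio was 0.65 (0.52 to 0.78) for S against G1, 0.79 (0.69 to 0.89) for G2/M against S and 1.44 (1.32 to 1.56) for G2/M against G1, so its level in G2/M was 2.71 times that in G1. Polr1a, the largest subunit and its partner, was nearly level, with 123 and 123 CPM in the G1 columns, 106 and 110.4 CPM in S and 116 and 115 CPM in G2/M. Its S columns were the lowest and its G1 columns the highest, and its log2 ratio was -0.18 (-0.25 to -0.12) for S against G1 and -0.09 (-0.15 to -0.02) for G2/M against G1.

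Polr1c and Polr1d encode the pair of subunits that RNA polymerase I shares with RNA polymerase III. Polr1c had 102 and 98.6 CPM in the G1 columns, 117 and 116 CPM in S and 61.6 and 62.3 CPM in G2/M. Its G2/M columns were far below the rest, and its level there was 1.88 times lower than in S, with a log2 ratio of -0.91 (-0.99 to -0.84). Polr1d, its partner, had 38.6 and 42.4 CPM in the G1 columns, 44.5 and 42.5 CPM in S and 33.8 and 35.5 CPM in G2/M. Between S and G1 the interval of Polr1d included equal levels, and its G2/M level was below S by a log2 ratio of -0.33 (-0.43 to -0.22).

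Polr1e encodes a subunit of the part of the enzyme that helps initiation. It was the least abundant of the 5 subunits per kilobase, at 21.1 and 21.5 CPM in the G1 columns, 14.1 and 15.0 CPM in S and 28.1 and 26.9 CPM in G2/M. The S columns were lowest and the G2/M columns highest without overlap, with a log2 ratio of -0.55 (-0.72 to -0.39) for S against G1 and 0.92 (0.77 to 1.08) for G2/M against S. The subunits of 1 enzyme thus had different lowest phases: G1 for Polr1b, S for Polr1a and Polr1e, and G2/M for Polr1c and Polr1d.

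Ubtf binds the ribosomal DNA and keeps its chromatin open. It had 295 and 292 CPM in the G1 columns, 214 and 216 CPM in S and 236 and 232 CPM in G2/M, highest in G1 in both columns. Its log2 ratio was -0.45 (-0.49 to -0.40) for S against G1 and -0.32 (-0.37 to -0.28) for G2/M against G1. Rrn3 joins the polymerase to the factors on the promoter and is a point at which growth signals act. It had 185 and 186 CPM in the G1 columns, 159.9 and 160.5 CPM in S and 154 and 149 CPM in G2/M, a steady decline over the phases with a log2 ratio of -0.29 (-0.35 to -0.24) for G2/M against G1.

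Of the members, 5 had levels in the order G1, S, G2/M from low to high (Polr1b, Utp11, Utp23, Utp6 and Rrp9), against 19.5% of all genes. The reverse order held in 3 (Bop1, Rrn3 and Utp15), against 19.4%. For Bop1 the interval of G2/M against S and for Utp15 that of S against G1 included equal levels, as did both steps of Rrp9. Promoters are shown for Polr1b, Rrn3 and Utp15, 1 gene of the first order and 2 of the second, as 250 bases before and 50 after the start, from RefSeq on GRCm38.p6, read 5′ to 3′ on the gene's strand. Capitals mark matches on either strand to CACGTG, the E-box that Myc binds, or to CCGGAAG, an Ets-family motif. Polr1b (highest in G2/M, chr2:129100746-129101045, plus strand), Rrn3 (lowest in G2/M, chr16:13780449-13780748, plus strand) and Utp15 (lowest in G2/M, chr13:98262943-98263242, minus strand) read as follows.
Polr1b: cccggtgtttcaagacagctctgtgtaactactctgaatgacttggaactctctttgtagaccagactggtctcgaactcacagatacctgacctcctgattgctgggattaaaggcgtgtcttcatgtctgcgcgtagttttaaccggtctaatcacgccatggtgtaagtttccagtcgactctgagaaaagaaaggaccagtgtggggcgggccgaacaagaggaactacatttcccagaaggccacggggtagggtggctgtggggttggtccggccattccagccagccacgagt
Rrn3: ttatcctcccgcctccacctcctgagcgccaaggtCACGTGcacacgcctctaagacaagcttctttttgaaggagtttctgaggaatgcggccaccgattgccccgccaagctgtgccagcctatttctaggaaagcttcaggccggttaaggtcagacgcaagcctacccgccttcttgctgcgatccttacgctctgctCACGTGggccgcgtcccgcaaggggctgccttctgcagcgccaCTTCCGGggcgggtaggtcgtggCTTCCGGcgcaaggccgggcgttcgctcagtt
Utp15: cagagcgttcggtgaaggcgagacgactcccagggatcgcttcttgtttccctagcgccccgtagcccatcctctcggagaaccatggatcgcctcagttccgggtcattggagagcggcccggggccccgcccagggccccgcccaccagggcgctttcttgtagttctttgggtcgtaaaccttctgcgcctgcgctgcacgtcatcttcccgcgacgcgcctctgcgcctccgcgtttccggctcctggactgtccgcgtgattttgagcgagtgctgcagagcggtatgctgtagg
The Rrn3 window held both motifs in 2 copies each, CACGTG starting at -215 and -48 and CCGGAAG at -5 and 18 relative to the start. The Polr1b and Utp15 windows held neither, nor GCATGCG, the motif of Nrf1. Of the 43 members 34 had a promoter in the table. CACGTG was in 8 of them (23.5%) against 8.09% of 27025 genes. CCGGAAG was in 11 (32.4%) against 9.93%, and GCATGCG in 2 (5.88%) against 4.01%. Those 27025 genes were limited neither to expressed genes nor to promoters of like base content. Whether the shares differ from those of matched genes was not tested. No motif contains another, and a match describes the letters only. Myc itself had 48.0, 42.2 and 41.3 CPM in G1, S and G2/M, and Mycn had no fragments.

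The snoRNP proteins carry the guide RNAs that mark where the precursor is modified. In box C/D particles Fbl adds methyl groups to ribose, with Nop56 and Nop58 as scaffold. In box H/ACA particles Dkc1 makes pseudouridine, with Nhp2, Gar1 and Nop10 as partners. In S, 6 of the 7 were below G1 and 6 of the 7 below G2/M, with medians of -0.37 for S against G1 and 0.39 for G2/M against S on the log2 scale. Fbl was the exception both times. In sum they took 1724 CPM in G1 cells, 1406 in S cells and 1802 in G2/M cells.

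Nop10 encodes the smallest H/ACA protein. It stood at 40.8 and 42.8 CPM in the G1 columns, 18.5 and 17.6 CPM in S and 36.7 and 37.8 CPM in G2/M. Its S columns were the lowest and did not overlap the others, and the log2 ratio was -1.21 (-1.35 to -1.07) for S against G1 and 1.04 (0.91 to 1.18) for G2/M against S. Nhp2 binds the guide RNA directly, and had 179 and 175 CPM in the G1 columns, 113 and 115 CPM in S and 163 and 166 CPM in G2/M. Gar1 contacts the catalytic subunit and had 155 and 154 CPM in the G1 columns, 108 and 108 CPM in S and 135 and 134 CPM in G2/M. In both the S columns were lowest without overlap, with log2 ratios for S against G1 of -0.64 (-0.70 to -0.58) in Nhp2 and -0.52 (-0.58 to -0.46) in Gar1. Dkc1, the enzyme, moved least of the 4, with 200.0 CPM in G1 cells, 193 in S cells and 232 in G2/M cells, and its log2 ratio for G2/M against S was 0.27 (0.22 to 0.31). The partners of 1 particle thus spanned log2 ratios from -1.21 to -0.05 for S against G1.

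The promoters of the 4 H/ACA genes, chosen after their values were seen, are shown because their products form 1 particle while their levels moved by different amounts. They lie at chr2:112261676-112261975 (Nop10, plus strand), chr11:51619523-51619822 (Nhp2, plus strand), chr3:129831347-129831646 (Gar1, minus strand) and chrX:75095604-75095903 (Dkc1, plus strand), from RefSeq on GRCm38.p6, with capitals as above.
Nop10: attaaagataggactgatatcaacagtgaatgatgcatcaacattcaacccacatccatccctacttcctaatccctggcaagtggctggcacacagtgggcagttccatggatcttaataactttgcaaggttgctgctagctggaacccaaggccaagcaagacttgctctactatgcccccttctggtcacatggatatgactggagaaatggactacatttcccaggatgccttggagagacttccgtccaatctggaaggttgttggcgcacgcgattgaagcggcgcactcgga
Nhp2: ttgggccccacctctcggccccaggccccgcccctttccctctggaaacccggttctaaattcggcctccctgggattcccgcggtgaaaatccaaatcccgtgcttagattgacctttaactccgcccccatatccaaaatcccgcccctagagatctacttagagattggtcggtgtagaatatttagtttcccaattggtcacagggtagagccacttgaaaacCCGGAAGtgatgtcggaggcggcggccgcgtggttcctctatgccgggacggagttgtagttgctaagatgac
Gar1: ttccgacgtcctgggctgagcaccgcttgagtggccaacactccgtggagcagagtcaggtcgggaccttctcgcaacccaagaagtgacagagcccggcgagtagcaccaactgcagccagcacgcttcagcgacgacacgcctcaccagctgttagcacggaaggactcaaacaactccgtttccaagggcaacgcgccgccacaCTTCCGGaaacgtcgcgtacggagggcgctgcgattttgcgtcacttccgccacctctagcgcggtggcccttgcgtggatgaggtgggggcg
Dkc1: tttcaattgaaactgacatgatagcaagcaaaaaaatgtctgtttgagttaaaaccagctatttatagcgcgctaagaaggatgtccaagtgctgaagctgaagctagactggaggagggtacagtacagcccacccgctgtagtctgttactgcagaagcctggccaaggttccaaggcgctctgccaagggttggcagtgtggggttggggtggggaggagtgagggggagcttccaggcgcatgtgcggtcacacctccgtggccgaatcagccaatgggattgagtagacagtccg
CCGGAAG began at -23 in Nhp2 and, on the other strand, at -43 in Gar1. In the Nop10 and Dkc1 windows none of the 3 motifs was present.

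Of the box C/D proteins, Fbl, the methyltransferase, had 171 and 172 CPM in the G1 columns, 183 and 186 CPM in S and 157 and 152 CPM in G2/M. Its S columns were the highest and its G2/M columns the lowest, with a log2 ratio of 0.10 (0.05 to 0.16) for S against G1 and -0.26 (-0.31 to -0.21) for G2/M against S. Nop56 and Nop58 had the opposite course. Nop56 stood at 401 CPM in G1 cells, 309.9 in S cells and 407 in G2/M cells, and Nop58 at 578 CPM in G1 cells, 479 in S cells and 671 in G2/M cells. Their log2 ratios for G2/M against S were 0.39 (0.36 to 0.43) and 0.49 (0.46 to 0.52). Both genes hold snoRNA genes, 5 in Nop56 and 4 in Nop58, and 8.12% of the exon bases of Nop56 are shared with other genes. Some fragments may therefore belong to these or have been left uncounted. The columns of Nop58 in G2/M were 658 and 685 CPM, closer to each other than to any column of S or G1.

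Ncl and Npm1, the abundant nucleolar proteins nucleolin and nucleophosmin, bind precursor RNA, chromatin and histones. Together they made up most of the summed level of the members, 8781 CPM in G1 cells, 7759.6 in S cells and 8464 in G2/M cells. Ncl had 5270.4 and 5302 CPM in the G1 columns, 4796 and 4794 CPM in S and 5218 and 5194 CPM in G2/M. Npm1 had 3511 and 3478 CPM in the G1 columns, 2972 and 2958 CPM in S and 3227 and 3289 CPM in G2/M. Both were lowest in S in both columns. At this depth their small log2 ratios had narrow counting intervals. They were -0.14 (-0.15 to -0.13) for Ncl and -0.24 (-0.25 to -0.23) for Npm1 in S against G1. In G2/M against S they were 0.12 (0.11 to 0.13) and 0.14 (0.12 to 0.15). These intervals leave out the choice of processing. With the trend on exon length taken out, S against G1 was -0.38 for Ncl and -0.11 for Npm1, outside both intervals. Npm1 has processed copies in the genome, and Ncl holds 2 snoRNA genes, so fragments could be left uncounted, split or shared.

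The 40S factors form the small-subunit processome, a large complex on the precursor around U3 snoRNA. As a group they did not dip in S. In S against G1, 10 of 16 were higher, with a median log2 ratio of 0.16, and in G2/M against G1 again 10 of 16, with a median of 0.14. Over all measured genes 49.6% and 49.8% were higher. At a mean of 50 CPM or more, 7 of 13 40S members were higher in each comparison, with medians of 0.07 and 0.10. The scarcer Utp14b, Rrp36 and Utp23 were higher in both, and the lean was smaller without them. Their summed level was 1391 CPM in G1 cells, 1520.4 in S cells and 1571 in G2/M cells.

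Utp14b had the largest ratio of the members that were higher in S than in G1. It is a copy of Utp14a, which works with a helicase that releases U3, and lies within the Acsl3 gene. It had 17.8 and 16.9 CPM in the G1 columns, 46.0 and 44.0 CPM in S and 40.8 and 42.9 CPM in G2/M, with both G1 columns far below the rest, and a log2 ratio of 1.37 (1.23 to 1.52) for S against G1 and 1.27 (1.13 to 1.41) for G2/M against G1. Of its exon bases 3.18% are shared with Acsl3, on the same strand, and whether RNA of Acsl3 was counted for Utp14b was not tested. Utp14a, the X-linked parent gene, had 63.1 and 64.2 CPM in the G1 columns, 59.6 and 62.9 CPM in S and 95.1 and 92.5 CPM in G2/M. Between S and G1 its interval included equal levels, and it was higher in G2/M by a log2 ratio of 0.61 (0.54 to 0.69) against S. The copies are alike in sequence, so fragments may be left uncounted or assigned to the wrong one, and 11.5% of the exon bases of Utp14a overlap an antisense gene.

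Utp11, Utp23 and Utp6 were higher from G1 to S and from S to G2/M. Utp11 is an early processome protein and had 39.0 and 38.0 CPM in the G1 columns, 51.0 and 52.2 CPM in S and 88.3 and 87.3 CPM in G2/M, with no overlap between phases. Its level in G2/M was 2.28 times that in G1, a log2 ratio of 1.19 (1.09 to 1.28). Utp23, which in yeast is needed to release a snoRNA from the precursor, had 16.7 and 17.2 CPM in the G1 columns, 23.2 and 24.8 CPM in S and 33.6 and 31.7 CPM in G2/M, and a log2 ratio of 0.95 (0.80 to 1.10) for G2/M against G1. Utp6 belongs to the UtpB subcomplex and had 118 and 124 CPM in the G1 columns, 139.5 and 146 CPM in S and 185 and 190.5 CPM in G2/M, with a log2 ratio of 0.63 (0.58 to 0.69). Each of the 3 was ordered the same way in every column. Rrp9, a protein of the U3 particle, had the same order but nearly level values, 48.1 CPM in G1 cells, 50.6 in S cells and 52.6 in G2/M cells, and its interval included equal levels in S against G1 and in G2/M against S.

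Other 40S factors peaked in S. Nop14, a core protein of the processome, had 80.2 and 75.6 CPM in the G1 columns, 124 and 119 CPM in S and 84.9 and 87.6 CPM in G2/M. Its S columns stood clear of the rest, with a log2 ratio of 0.64 (0.57 to 0.71) against G1, and -0.49 (-0.56 to -0.43) for G2/M against S. Rrp36, an early processing factor in yeast and the scarcest member in CPM, had 10.7 and 10.7 CPM in the G1 columns, 19.5 and 18.7 CPM in S and 16.9 and 16.6 CPM in G2/M, with the G1 columns lowest. Its log2 ratio for S against G1 was 0.83 (0.65 to 1.03), and with 343 fragments in G1 it had the widest interval of the members.

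The UtpA and UtpB subcomplexes, which bind the precursor first, held members of different courses. Of UtpA, Utp4 had 126 and 132 CPM in the G1 columns, 170.0 and 175 CPM in S and 139 and 138 CPM in G2/M. Its partner Utp15 had 77.2 and 75.5 CPM in the G1 columns, 72.1 and 76.4 CPM in S and 53.9 and 53.6 CPM in G2/M. Utp4 was highest in S, by a log2 ratio of 0.42 (0.36 to 0.47) against G1. For Utp15 the interval of S against G1 included equal levels, and it was lower in G2/M by a log2 ratio of -0.47 (-0.55 to -0.38) against S. Of UtpB, Utp18 had 205 and 211 CPM in the G1 columns, 249.6 and 253 CPM in S and 192 and 194 CPM in G2/M, highest in S, whereas Utp6 was highest in G2/M. The log2 ratio of Utp18 was 0.27 (0.23 to 0.32) for S against G1 and -0.38 (-0.43 to -0.34) for G2/M against S.

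The remaining 40S factors were Utp3, Utp20, Rrp7a, Rrp12 and Nop9. Utp3, a processome protein, had 124 CPM in G1 cells, 88.2 in S cells and 116 in G2/M cells. Rrp7a, needed for 18S rRNA in yeast, had 93.2 CPM in G1 cells, 69.0 in S cells and 86.9 in G2/M cells. Rrp12, which takes part in export of the subunits, had 75.5 CPM in G1 cells, 68.7 in S cells and 95.8 in G2/M cells. All 3 were lowest in S, with log2 ratios for G2/M against S of 0.39 (0.32 to 0.46), 0.33 (0.26 to 0.41) and 0.48 (0.41 to 0.56). Utp20, a very large scaffold protein, moved little, at 197 CPM in G1 cells, 181 in S cells and 196 in G2/M cells. Nop9, which binds the precursor near the end of 18S rRNA in yeast, was the steadiest member, at 94.4 CPM in G1 cells, 99.3 in S cells and 92.4 in G2/M cells, and shares 30.9% of its exon bases with the antisense gene Cideb. The antisense overlap of Rrp7a, with Serhl, was 12.5%.

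**Figure D3:**
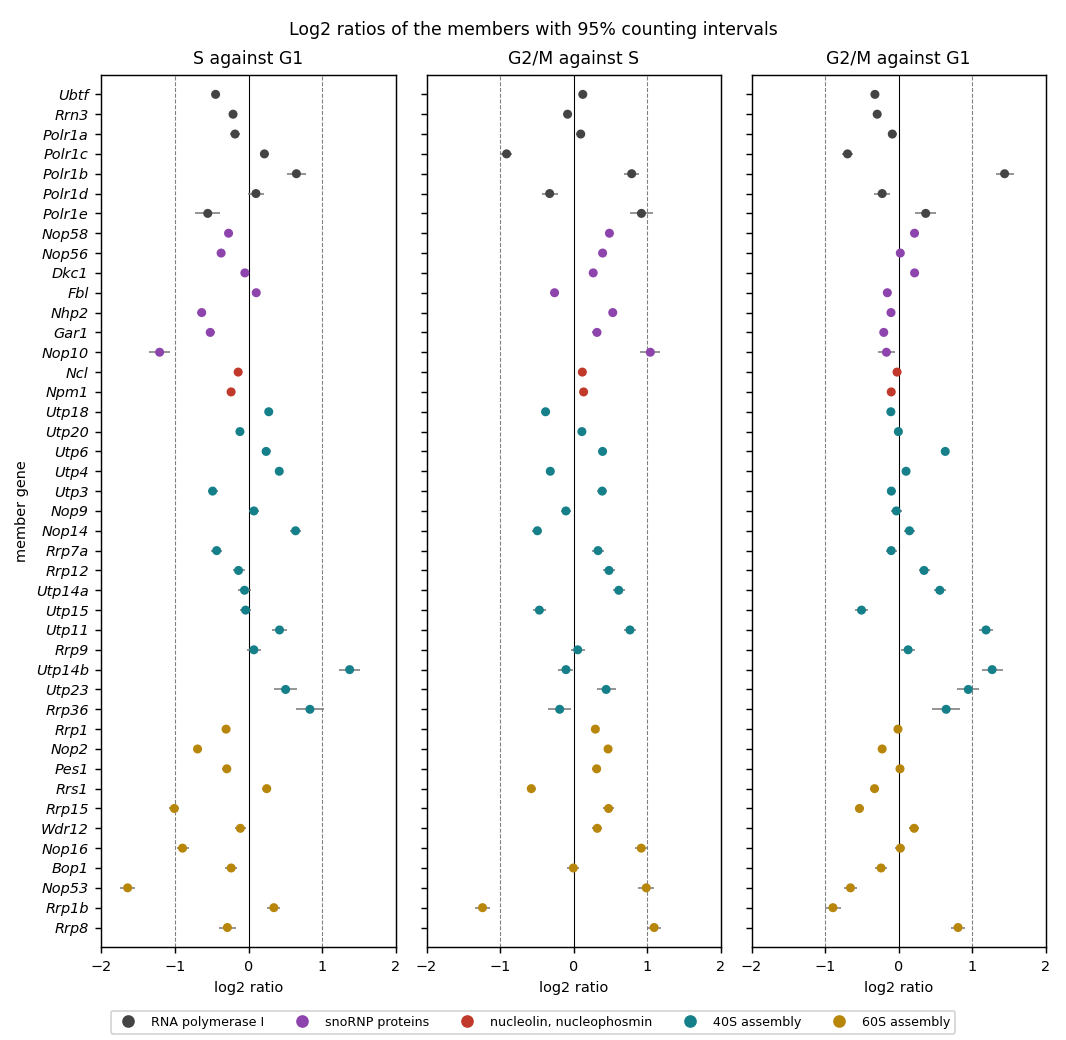
Log2 ratio of each member in the 3 comparisons, with its 95% counting interval as a horizontal line and dashed lines at 2-fold. In S against G1, Nop53 lies at -1.64 and Utp14b at 1.37, and most 60S and snoRNP members lie left of 0 there and right of 0 in G2/M against S.

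The 60S factors were lower in S than in either neighbour as a group. In S against G1, 9 of 11 were lower, with a median log2 ratio of -0.30, and in G2/M against S 8 of 11 were higher, with a median of 0.32. Their summed level was 1436 CPM in G1 cells, 1085 in S cells and 1304 in G2/M cells.

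Nop53 had the widest range of any member. In yeast its counterpart calls the RNA exosome to the precursor of 5.8S rRNA, and the mammalian protein is also known as a nucleolar stress factor. It had 87.5 and 87.1 CPM in the G1 columns, 28.1 and 27.8 CPM in S and 53.5 and 57.3 CPM in G2/M. The S columns were lowest and the G1 columns highest, with the G2/M columns between and no overlap, and the S level was 3.12 times lower than in G1. The log2 ratio was -1.64 (-1.75 to -1.54) for S against G1, 0.99 (0.88 to 1.10) for G2/M against S and -0.66 (-0.74 to -0.57) for G2/M against G1. The gene holds 1 snoRNA gene, Snord23, outside its exons.

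Rrp15, a factor of early 60S particles, had 152 and 149 CPM in the G1 columns, 76.0 and 73.3 CPM in S and 102 and 106 CPM in G2/M, and the same order of phases as Nop53. Its log2 ratio was -1.01 (-1.08 to -0.94) for S against G1, a level 2.01 times lower and so at the edge of the 2-fold rule. Nop16, an assembly factor of 60S particles that Myc is known to induce, had 103 and 99.7 CPM in the G1 columns, 56.3 and 52.6 CPM in S and 102 and 104 CPM in G2/M. For Nop16 the interval of G2/M against G1 included equal levels, and the S columns were well below both, with a log2 ratio of -0.90 (-0.98 to -0.82) against G1 and 0.92 (0.84 to 1.00) for G2/M against S. Nop2, which methylates a cytosine of 28S rRNA and is long known as a proliferation antigen, had 265 and 255 CPM in the G1 columns, 162 and 159 CPM in S and 224 and 220.0 CPM in G2/M. Its log2 ratio was -0.69 (-0.74 to -0.64) for S against G1.

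Rrp8 methylates an adenine of 28S rRNA and, in mammals, is part of a complex that silences ribosomal DNA. It had 42.3 and 40.8 CPM in the G1 columns, 34.1 and 34.0 CPM in S and 72.3 and 73.1 CPM in G2/M. The G2/M columns stood apart, with a log2 ratio of 1.09 (1.00 to 1.19) against S and 0.81 (0.71 to 0.90) against G1. Of its exon bases 11.6% overlap Ilk on the other strand, and counting named no strand option, so fragments of the 2 genes cannot be told apart there.

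Rrp1 and Rrp1b are related genes for 60S factors, and went separate ways. Rrp1b, of which the protein is also known to bind chromatin, had 52.3 and 55.1 CPM in the G1 columns, 66.1 and 70.2 CPM in S and 28.3 and 29.5 CPM in G2/M. It was lowest in G2/M and highest in S, and its log2 ratio for G2/M against S, -1.24 (-1.34 to -1.13), was the most negative of the members in that comparison. Rrp1 stood at 291 CPM in G1 cells, 236 in S cells and 289 in G2/M cells, with an interval for G2/M against G1 that included equal levels, and was lower in S by a log2 ratio of -0.31 (-0.35 to -0.26). Rrs1, which helps to place the 5S particle in the large subunit, had 135 and 129 CPM in the G1 columns, 154 and 159 CPM in S and 107 and 103 CPM in G2/M, and like Rrp1b it was highest in S and lowest in G2/M. Its log2 ratio was 0.25 (0.19 to 0.31) for S against G1 and -0.58 (-0.64 to -0.52) for G2/M against S. The 5S particle's own proteins, Rpl5 and Rpl11, were highest in G1, at 1403 CPM and 2069 CPM.

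Pes1, Bop1 and Wdr12 form the PeBoW complex, which is needed to process the precursor of 28S rRNA. Pes1 had 151 CPM in G1 cells, 123 in S cells and 153 in G2/M cells. Bop1 had 77.8 CPM in G1 cells, 66.1 in S cells and 65.9 in G2/M cells, and Wdr12 had 90.2 CPM in G1 cells, 83.5 in S cells and 104 in G2/M cells. All 3 were below G1 in S, by log2 ratios of -0.30 (-0.35 to -0.24), -0.24 (-0.32 to -0.15) and -0.11 (-0.19 to -0.04). Against G1, the G2/M interval of Pes1 included equal levels, Wdr12 was higher by 0.21 (0.14 to 0.28), or -0.01 with the trend on exon length taken out, and Bop1 lower, at -0.24 (-0.32 to -0.16). The spread within this complex was small beside that of the polymerase subunits.

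Genes of the same pathway outside the naming rule did not lean the way the members did in S against G1. Of 146 such genes 140 were measured, 70 higher and 70 lower in S than in G1, and their median log2 ratio was -0.00. In G2/M against S 87 were higher and 53 lower, with a median of 0.08, and in G2/M against G1 86 of 139 were higher, with a median of 0.12. The members and these genes are named sets and the difference between them was not tested.

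**Figure D4:**
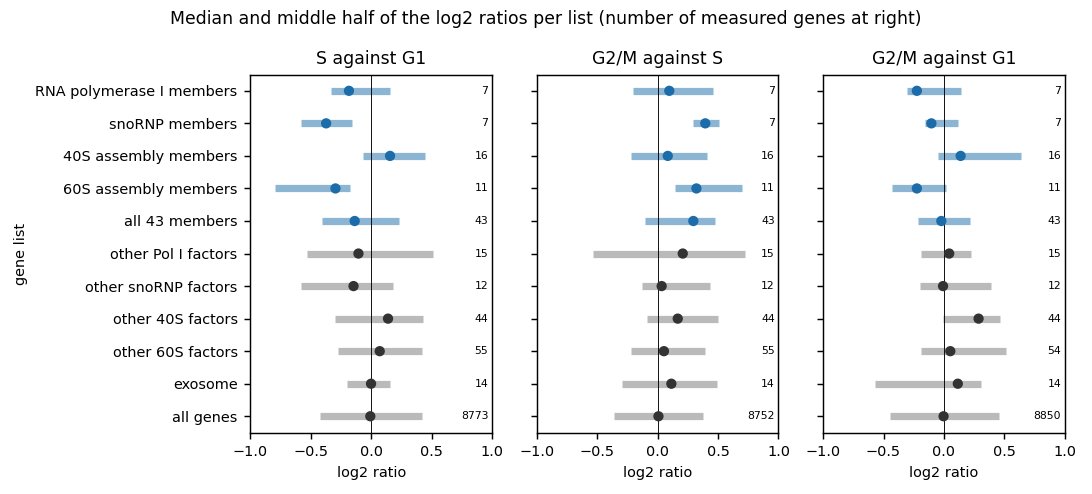
Median (dot) and range from the 25th to the 75th percentile (bar) of the log2 ratios of each list in the 3 comparisons, members in blue, other lists and all genes in grey, with the number of measured genes at the right. The snoRNP and 60S members lie to the left of 0 in S against G1 and to the right in G2/M against S, while the other 60S factors stay near 0 in both.

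By role, the other 40S factors resembled the 40S members in sign: 26 of 44 were higher in S than in G1 and 33 of 44 in G2/M than in G1, with medians of 0.14 and 0.29. Pdcd11, a large scaffold of the processome, had 84.3, 141 and 97.6 CPM in the order G1, S, G2/M, which holds for the values below too. Mphosph10, a U3 protein, had 58.8, 82.1 and 109.5 CPM, and Fcf1, a relative of Utp23, had 115.3, 54.7 and 94.99 CPM. These 3 had their highest levels in 3 different phases.

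The other 60S factors, 55 measured, were split 28 higher against 27 lower in S against G1, beside 2 against 9 for the 60S members, a difference that was not tested. Mdn1, the giant ATPase that strips factors from 60S particles, had 127, 277 and 276 CPM. Nol9, a kinase of the processing of 28S rRNA ends, had 39.4, 92.0 and 50.7 CPM. Npm3, a relative of Npm1, had 91.6, 40.4 and 58.8 CPM, and Ebna1bp2, an early 60S factor, had 214, 108 and 189 CPM. Both were lowest in S.

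Of 15 measured other genes of RNA polymerase I, 10 had less in S than in G1. Polr2f and Polr2h, small subunits common to all 3 nuclear polymerases, were lowest in S, Polr2f at 75.8, 42.1 and 80.1 CPM and Polr2h at 67.0, 42.0 and 61.2 CPM. Of further common subunits, named after their values were seen, Polr2k was highest in S, at 31.6, 52.1 and 33.1 CPM. Polr2e was lowest in S, at 54.2, 37.2 and 55.9 CPM, and Polr2l was below the minimum. The means of Polr2k and Polr2e were below 50 CPM. Among 12 other snoRNP factors 8 were lower in S than in G1. At a mean of 50 CPM or more the lean was the other way, with 4 of 6 higher and a median log2 ratio of 0.35. Among these, Naf1, which assembles H/ACA particles before Gar1 takes its place, had 58.9, 115 and 63.1 CPM. Its S level was 1.95 times its G1 level, the opposite of Gar1. Among 14 exosome and processing nuclease genes 7 were higher and 7 lower in S than in G1. Xrn2, the exonuclease that trims ends, had 152, 208 and 305 CPM, and Exosc10, the nuclear exosome enzyme, had 38.0, 41.7 and 85.0 CPM. Both were highest in G2/M, but Exosc2, at 130, 156 and 78.4 CPM, and Exosc7, at 71.5, 41.5 and 38.0 CPM, were lowest there. Of the 14 genes, 8 were higher and 6 lower in G2/M than in S.

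Exon length and level moved with the ratios over all genes, and both are given because the members are shorter than most genes. Their median was 3597 exon bases, beside 4572 over the genes whose mean was 50 CPM or more, and 1714 for the 7 snoRNP members. In 4 equal bins of those genes, from the shortest to the longest, the median log2 ratio of S against G1 was -0.20, -0.05, 0.08 and 0.25. With the trend on length taken out, the median of the members was -0.12 for S against G1, 0.23 for G2/M against S and 0.01 for G2/M against G1, the last of opposite sign. Of the snoRNP members 6 of 7 were then still below G1 in S, and of the 60S members 9 of 11. Rrp36 passed 2-fold in S against G1, at 1.06 on the log2 scale, while Nop10, at -0.97, and Rrp15, at -0.93, no longer did. Between G2/M and G1 the snoRNP members turned from 3 higher of 7 to 6 of 7.

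**Figure D5:**
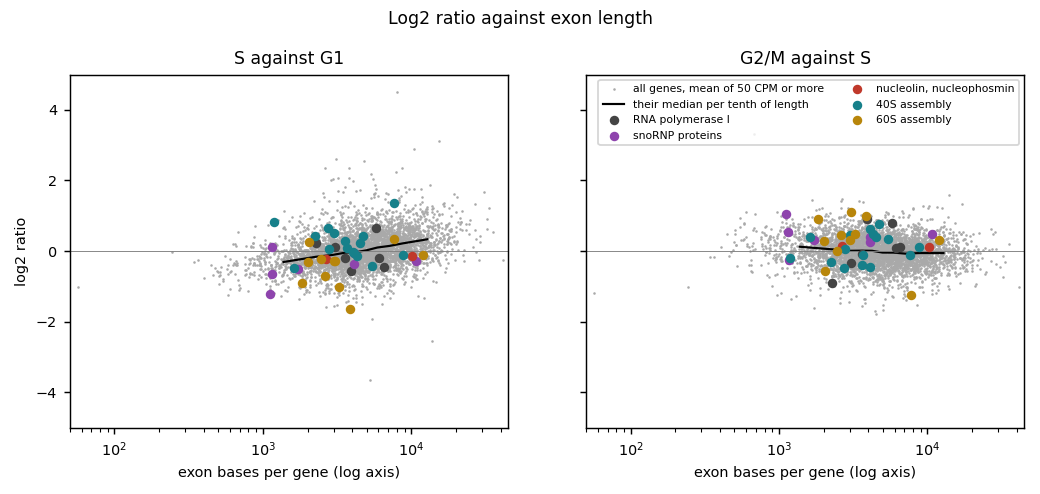
Log2 ratio against exon bases per gene (log axis) for S against G1 and G2/M against S. Grey points are genes whose mean was 50 CPM or more, the line is their running median along length, and coloured points are the 43 members by role. The line climbs with length in S against G1, where Nop53 lies far below it and Utp14b above it.

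Ratios of scarce genes were also larger. The share of genes at least 2-fold apart between S and G1 was 33.7% at 10 to 20 CPM, 17.2% at 20 to 50 CPM, 8.47% at 50 to 100 CPM, 3.16% at 100 to 500 CPM and 1.99% at 500 CPM or more. Most members lay in the middle of this range, 14 at 50 to 100 CPM and 18 at 100 to 500 CPM. Nop53, with a mean of 56.9 CPM, and Rrp15, with 109.5 CPM, lay above a mean of 50 CPM, and Utp14b and Nop10 lay below it.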

How the data were processed

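The authors deposited counts of fragments per gene for 6 RNA-seq columns. They were made with featureCounts 1.5.0-p3 on read pairs and the exons of Ensembl GRCm38 genes, per the file headers. The command sets nothing for strandedness, for reads with several alignments or for overlaps. Fragments of overlapping or copied genes could thus be left uncounted or placed with another gene, and which of these happened was not tested. HISAT2 2.1.0 appears in the submitters' processing notes. Symbols came from a supplied table that matched 45143 of 46078 gene identifiers (98.0%). The log2 and CPM values were computed here from the deposited counts.

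The 2 columns of a phase were summed to 1 library, holding 32395232 (G1), 35822319 (S) or 35907974 (G2/M) fragments. CPM used TMM factors of edgeR 4.0.16 in R 4.3.3 over 12832 genes (0.990, 1.00 and 1.01). A count under 3 was set to 3 for ratios. A gene was measured at 10 CPM in 1 of the 2 phases and called at 2-fold, or in a second rule 1.5-fold. The ratio method was tested on simulated data. The planned edgeR quasi-likelihood test with columns as replicates became an alternative, because the common biological coefficient of variation of the columns was 0.988%. PCR copies are not independent molecules.

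Column values are given for the 8 members with the largest ratio in each direction per comparison, the 7 RNA polymerase I members, Fbl, Ncl and Npm1. For the other lists the 3 genes with the largest ratios at 50 CPM were eligible. Myc and Mycn were named beside them for the motif. Polr2k, Polr2e and Polr2l were named as common subunits after their values were seen. The members and lists were chosen with earlier results of these data known. Motifs were searched on both strands of RefSeq promoters, which a table of GRCm38.p6 gave for 34 members. Alternatives were other scalings, filters, floors, the exon length trend and left-out columns.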

Additional observations from a re-analysis of the deposited data

How the results depend on the processing

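Of 17 other settings, those on scaling, floor, exon length trend and left-out columns recomputed the ratios of single members. In these no member called at 2-fold or 1.5-fold changed sign. The floor could not alter a member, as no member had a count near it. The filters, the limit on shared exon bases and the edgeR test were not used for ratios of single members. Of the summary values 28 moved and 289 kept their size. DESeq2 size factors, library size alone and a floor of 1 fragment did not change the size of any of these beyond its limit, but the median of the members in G2/M against G1, -0.02, changed sign with library size alone (0.01) and with the exon length trend removed (0.01). Uncalled ratios of single members changed sign 28 times, in 14 ratios no larger than 0.21 on the log2 scale, among them Bop1 in G2/M against S and Dkc1 and Utp15 in S against G1. With the exon length trend removed, the members at least 2-fold higher and lower in S against G1 numbered 2 and 1, and those higher in G2/M against S numbered 1. With the first or second column of every phase left out, that last count ran from 1 to 3. Without a filter on low counts, the genes at least 2-fold higher and lower were 2404 and 2006 in S against G1, 1791 and 2245 in G2/M against S, and 2223 and 2296 in G2/M against G1. With a mean of 50 CPM or more required they were 150 and 85, 37 and 63, and 164 and 110. There the members at least 2-fold higher were 0, 0 and 1, and at least 1.5-fold higher 1, 4 and 2, in the same order. Of the 43 members 8 are below that mean, which lowers these counts by construction.

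Taking the columns as replicates, edgeR's quasi-likelihood test called 38, 41 and 37 members at an FDR of 0.05, beside 84.7%, 83.6% and 84.7% of all 12489 genes tested, and the same numbers with the replicate number as a block, 38, 41 and 37. This compares these libraries only. The column numbers do not pair samples by any label, and the G2/M columns varied by more than counting noise. Depth limits Rrp36 and Polr1e most among the members, and no setting adds a replicate of a phase.

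The members lowest in S numbered 23 to 25 of 43 over the other scalings, the length trend and left-out columns, and 21 of 39 without those that share over 10% of their exon bases with another gene. For single members, 1449 log2 ratios shifted by less than their interval over the settings that recomputed them and 99 by more, 60 of them with the length trend removed.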
